A study of Rattus norvegicus with 18 samples.

Results

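The genes described here are a group that the tumor suppressor p53 is known to switch on, together with the proteins that hold p53 down: Mdm2, Mdm4, Ccng1, Zmat3, Btg2, Gadd45a, Sesn1 and Sesn2. They were chosen by symbol, and 8 of 9 listed genes were found among the 13188 genes of the expression table. The remaining gene, Perp, was not analysed here. RNA-seq covered 18 cultures in 6 groups of 3. All cultures were HO15.19 cells, a line of Rat1 fibroblasts in which the endogenous myc gene has been disrupted (myc-/-). Untransfected cells were either myc-/- or carried human MYC delivered by a virus (myc-/- + MYC). Both of these were also transfected with control siRNA (siCtrl). The last 2 groups were myc-/- + MYC cells that received siAHR-2 or siAHR-5, siRNAs that target Ahr, the gene of the aryl hydrocarbon receptor. Transfected cells received 40 nM siRNA and were harvested 48 h later. MYC was driven by a retroviral vector rather than by the promoter of the myc gene, and all groups derive from a single cell line. Nothing in the labels says whether the 3 cultures of a group were grown separately, so p-values measure the spread between these cultures.

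In stressed cells p53 accumulates, binds DNA and induces genes that stop the cell cycle, repair DNA, limit oxidation or kill the cell. One of its targets is Mdm2, a ubiquitin ligase that marks p53 for destruction, so that p53 and Mdm2 form a feedback loop. Its relative Mdm4 binds p53 and blocks its activity. MYC is known to act on p53 through the tumor suppressor Arf, which inhibits Mdm2.

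The deposited values are on a log2 scale and fall into a set of 6 libraries (myc-/- + MYC and its control, myc-/- siCtrl) and a set of 12 libraries (myc-/- cells and the MYC-expressing cells given siCtrl, siAHR-2 or siAHR-5). The first principal component held 74.7% of the variance and divided the sets, so groups were compared only inside a set. As labelled, each comparison of MYC also sets a siCtrl group against an untransfected group: the siCtrl cells are those without MYC in the set of 6 and those with MYC in the set of 12. The headings of the deposited columns name siCtrl only for the MYC-expressing group and call the cells labelled myc-/- siCtrl "control". Whether the labels are right was not tested. If the columns headed control were untransfected, MYC would be compared without a difference in transfection in the set of 6. Libraries of one group correlated at 0.999 or above and none were identical. The values cannot be turned into read counts, and the depth is unknown. Rat Myc still gave signal, and with human MYC its log2FC was -1.26 (set of 6) and -2.68 (set of 12). Ahr had a log2FC of -1.29 with siAHR-2 and -1.39 with siAHR-5. Of 11 fibroblast markers, all were in the table, but Col1a2, a collagen chain that defines fibroblasts, was low in every library (3.64 to 4.13). Over all libraries the markers of other cell types ranged from 1.22 to 9.05 for 5 epithelial genes (Epcam 1.22 to 2.42), from 1.99 to 7.55 for 3 blood genes (Ptprc 2.84 to 4.65) and from 0.94 to 9.20 for 4 endothelial genes.

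Differences are given as log2 fold change (log2FC) with their standard error. A gene is said to rise or fall where limma gave a fold of at least 1.5 (a log2FC of 0.585) and a Benjamini-Hochberg adjusted p of at most 0.01, adjusted over all genes. Levels differ with the length of a transcript and are compared only within a gene.

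To ask how MYC affects these genes, myc-/- + MYC cells were first compared with myc-/- siCtrl cells in the set of 6. Here 6 of the 8 genes fell and 1, Sesn1, rose, while 14.3% of all genes fell and 12.5% rose. The median log2FC of the 8 genes was -0.91, against -0.0038 over all genes. When MYC-expressing siCtrl cells were compared with myc-/- cells in the set of 12, 3 of the 8 genes rose (Mdm2, Zmat3 and Sesn1) and none fell, against 10.8% of all genes that rose and 14.7% that fell. There the median log2FC of the 8 genes was 0.42, against -0.00014 over all genes. Mdm2 and Zmat3 thus fell with MYC in one set and rose in the other. Cells with and without MYC did not overlap for 7 of the 8 genes in either set, while this held for 78.8% of all genes in the smaller set and for 70.5% in the larger one. An adjusted p below 0.05, with no fold cutoff, was reached by 7 of the 8 genes in either set and by 76.2% and 64.7% of all genes.

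**Figure D1:**
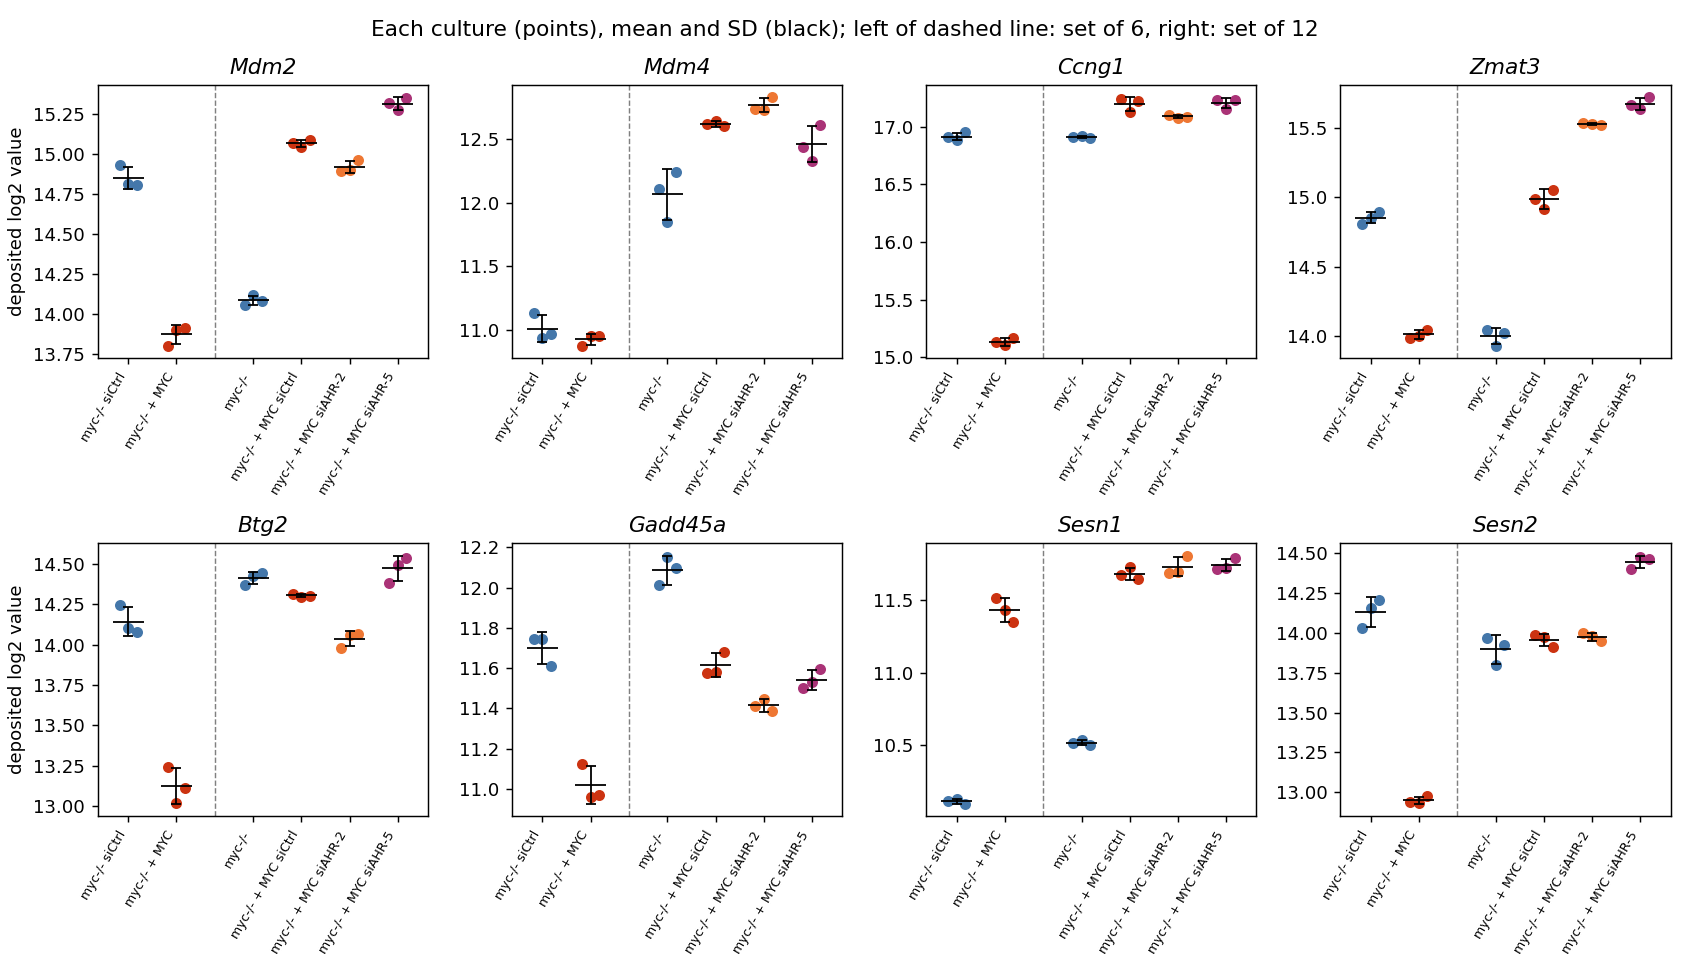
Deposited log2 values of the 8 genes in each of the 18 cultures (points), with the group mean and SD in black. The dashed line divides the set of 6 from the set of 12. Mdm2 lies between 13.80 and 13.91 in myc-/- + MYC cells, below the 14.81 to 14.93 of their control, and between 15.05 and 15.09 in myc-/- + MYC siCtrl cells, above the 14.06 to 14.11 of theirs.

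Among the inhibitors of p53, Mdm2 had log2 values of 14.93, 14.81 and 14.81 in myc-/- siCtrl cells and of 13.80, 13.90 and 13.91 in myc-/- + MYC cells. Within the set of 12, Mdm2 stood at 14.06, 14.11 and 14.08 in myc-/- cells and 15.07, 15.05 and 15.09 in myc-/- + MYC siCtrl cells. The MYC-expressing cultures were thus the low ones in the set of 6 and the high ones in the set of 12, and the groups did not overlap in either. Mdm2 fell with MYC in the set of 6 (log2FC -0.98, SE 0.0418, adjusted p = 1.91e-09) and rose in the set of 12 (log2FC 0.99, SE 0.0269, adjusted p = 1.44e-06).

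Mdm4, which binds p53 but does not by itself degrade it, behaved differently. Its values were 11.13, 10.94 and 10.97 in myc-/- siCtrl cells and 10.88, 10.95 and 10.95 in myc-/- + MYC cells, and these groups overlapped (log2FC -0.09, SE 0.0555, adjusted p = 0.183). Mdm4 in the set of 12 was at 12.11, 11.85 and 12.24 in myc-/- cells and at 12.62, 12.64 and 12.60 in myc-/- + MYC siCtrl cells. The groups did not overlap, but the log2FC of 0.55 (SE 0.0994, adjusted p = 0.00345) stayed below the fold cutoff. It passed the cutoff after quantile normalization and after median centring (0.59 in both), and without replicate 3 of the myc-/- cells (0.64). Mdm4 had the widest spread of the 8 genes in any group, an SD of 0.200 in myc-/- cells.

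The cyclin G1 gene Ccng1, a p53 target whose product recruits a phosphatase to Mdm2, showed the largest difference of the 8 genes in the set of 6. It was at 16.91, 16.88 and 16.95 in myc-/- siCtrl cells and at 15.13, 15.11 and 15.17 in myc-/- + MYC cells. Ccng1 fell by 1.78 on the log2 scale (SE 0.0299, adjusted p = 1.38e-12), which is 3.43-fold. Its values in the set of 12 were 16.91, 16.92 and 16.90 in myc-/- cells and 17.24, 17.13 and 17.22 in myc-/- + MYC siCtrl cells. There the MYC-expressing cultures were higher without overlap, with a log2FC of 0.29 (SE 0.0383, adjusted p = 9.22e-04) that did not reach the fold cutoff.

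Zmat3, also called Wig1, encodes a zinc finger protein that binds RNA and is induced by p53. Its values were 14.81, 14.85 and 14.89 in myc-/- siCtrl cells and 13.99, 14.00 and 14.05 in myc-/- + MYC cells. They were, in the set of 12, 14.04, 13.93 and 14.02 in myc-/- cells and 14.99, 14.92 and 15.05 in myc-/- + MYC siCtrl cells. Like Mdm2, Zmat3 fell with MYC in the set of 6 (log2FC -0.84, SE 0.0311, adjusted p = 6.13e-10) and rose in the set of 12 (log2FC 0.99, SE 0.0482, adjusted p = 1.24e-05), with no overlap between groups.

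Btg2 and Gadd45a are p53 targets that slow proliferation, Btg2 as a cofactor of mRNA decay and transcription and Gadd45a as a partner of the replication clamp and of stress kinases. Btg2 was at 14.24, 14.10 and 14.08 in myc-/- siCtrl cells and at 13.24, 13.02 and 13.11 in myc-/- + MYC cells, a fall by 1.02 on the log2 scale (SE 0.0572, adjusted p = 1.94e-08). Btg2 in the set of 12 was at 14.37, 14.43 and 14.44 in myc-/- cells and at 14.32, 14.30 and 14.30 in myc-/- + MYC siCtrl cells. That difference did not pass (log2FC -0.11, SE 0.0278, adjusted p = 0.0143), and its sign turned after quantile normalization (0.0085). Gadd45a was at 11.75, 11.74 and 11.61 in myc-/- siCtrl cells and at 11.13, 10.96 and 10.97 in myc-/- + MYC cells, where it fell by 0.68 on the log2 scale (SE 0.0562, adjusted p = 5.50e-07). Values of Gadd45a in the set of 12 were 12.01, 12.15 and 12.10 without MYC and 11.58, 11.58 and 11.68 with MYC. The MYC-expressing cultures were thus the lower ones in both sets, but the log2FC of -0.47 in the set of 12 (SE 0.0525, adjusted p = 3.99e-04) was short of the fold cutoff.

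The sestrins Sesn1 and Sesn2 protect cells from oxidation and restrain the growth kinase mTORC1, and their levels moved apart. Sesn1 was at 10.11, 10.13 and 10.10 in myc-/- siCtrl cells and at 11.52, 11.43 and 11.35 in myc-/- + MYC cells. The set of 12 had it at 10.52, 10.53 and 10.50 in myc-/- cells and at 11.67, 11.73 and 11.65 in myc-/- + MYC siCtrl cells. Sesn1 was the gene of the 8 that rose with MYC in both sets, with a log2FC of 1.32 (SE 0.0502, adjusted p = 7.24e-10) and 1.17 (SE 0.0379, adjusted p = 2.63e-06). Sesn2 was at 14.03, 14.15 and 14.21 in myc-/- siCtrl cells and at 12.94, 12.93 and 12.98 in myc-/- + MYC cells, a fall by 1.18 on the log2 scale (SE 0.0432, adjusted p = 5.61e-10). Its values in the set of 12 overlapped, at 13.96, 13.79 and 13.93 without MYC and at 13.98, 13.97 and 13.91 with MYC (log2FC 0.06, SE 0.0510, adjusted p = 0.343).

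The difference between the MYC comparisons, set of 12 minus set of 6, was then tested in a single fit of the 4 groups (12 libraries). It passed the cutoffs for 6 of the 8 genes, all with a higher log2FC in the set of 12, while 16.5% of all genes passed, 6.79% in that direction and 9.67% in the other. Without the fold cutoff, 7 of the 8 genes had an adjusted p below 0.05, and 54.9% of all genes. The difference was largest for Ccng1 (2.06, SE 0.0531, adjusted p = 3.99e-13), followed by Mdm2 (1.96, SE 0.0592, adjusted p = 1.78e-12) and Zmat3 (1.83, SE 0.0605, adjusted p = 4.38e-12). Sesn2 differed by 1.24 (SE 0.0720, adjusted p = 2.04e-09) and Btg2 by 0.91 (SE 0.0758, adjusted p = 1.09e-07). Mdm4 differed by 0.64 (SE 0.112, adjusted p = 2.07e-04), but this was no longer past the fold cutoff without replicate 2 of the myc-/- cells (0.53) or without replicate 1 of the myc-/- siCtrl cells (0.58). Neither Gadd45a (0.21, SE 0.0841, adjusted p = 0.0491) nor Sesn1 (-0.15, SE 0.0705, adjusted p = 0.0770) passed. By its construction this contrast is also the sum, over both sets, of the group labelled siCtrl minus the untransfected group. A MYC effect that is equal in both sets cancels in it. A MYC effect that differs between the sets and the transfection label therefore cannot be told apart in it.

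Across the table, 28 genes (0.212%) fell with MYC in the set of 6 and rose in the set of 12, among them Mdm2 and Zmat3, 2 of the 8 genes (25.0%). The reverse pattern was seen for 17 genes (0.129%), and 2081 genes (15.8%) passed in the same direction in both sets. Counted by label, the siCtrl group lay above the untransfected group without overlap in both sets for 3 of the 8 genes, Mdm2, Zmat3 and Ccng1, and for 3.94% of all genes. The 8 genes were chosen with earlier results of these data known, so these shares are descriptive.

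**Figure D2:**
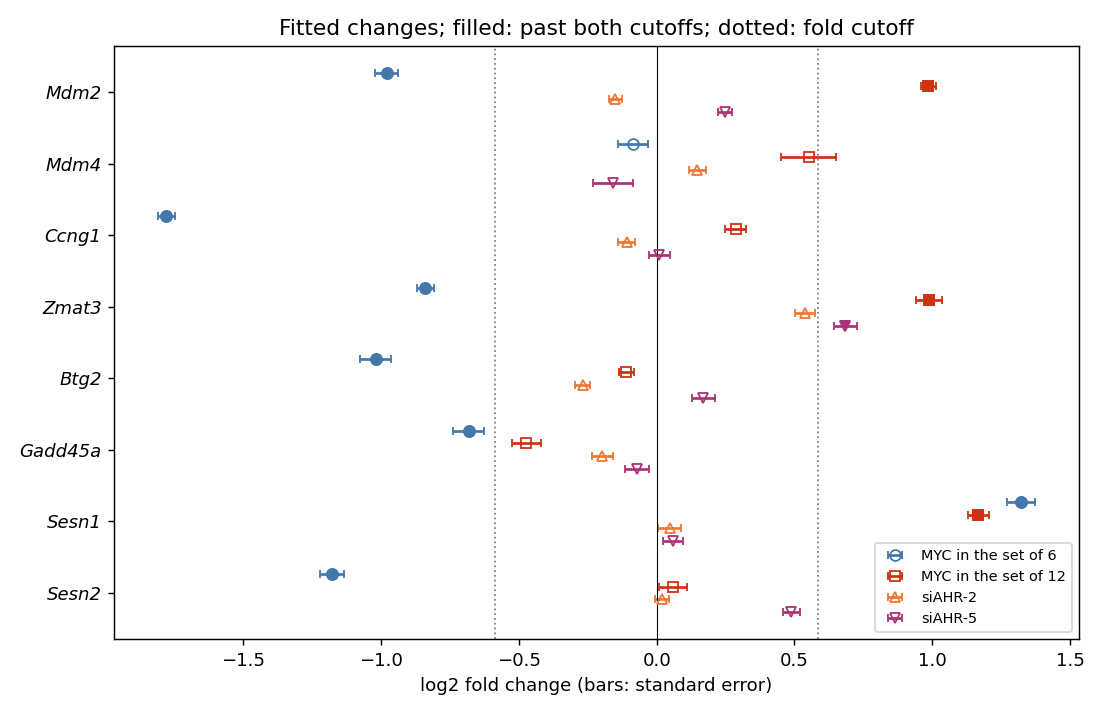
Log2 fold changes of the 8 genes (points) with their standard errors (bars) in the 2 comparisons of MYC and the 2 siRNA comparisons. Filled symbols passed both cutoffs and dotted lines mark the fold cutoff. Mdm2 and Zmat3 have filled symbols on opposite sides of 0 for MYC, while both filled symbols of Sesn1 are on the right.

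**Figure D3:**
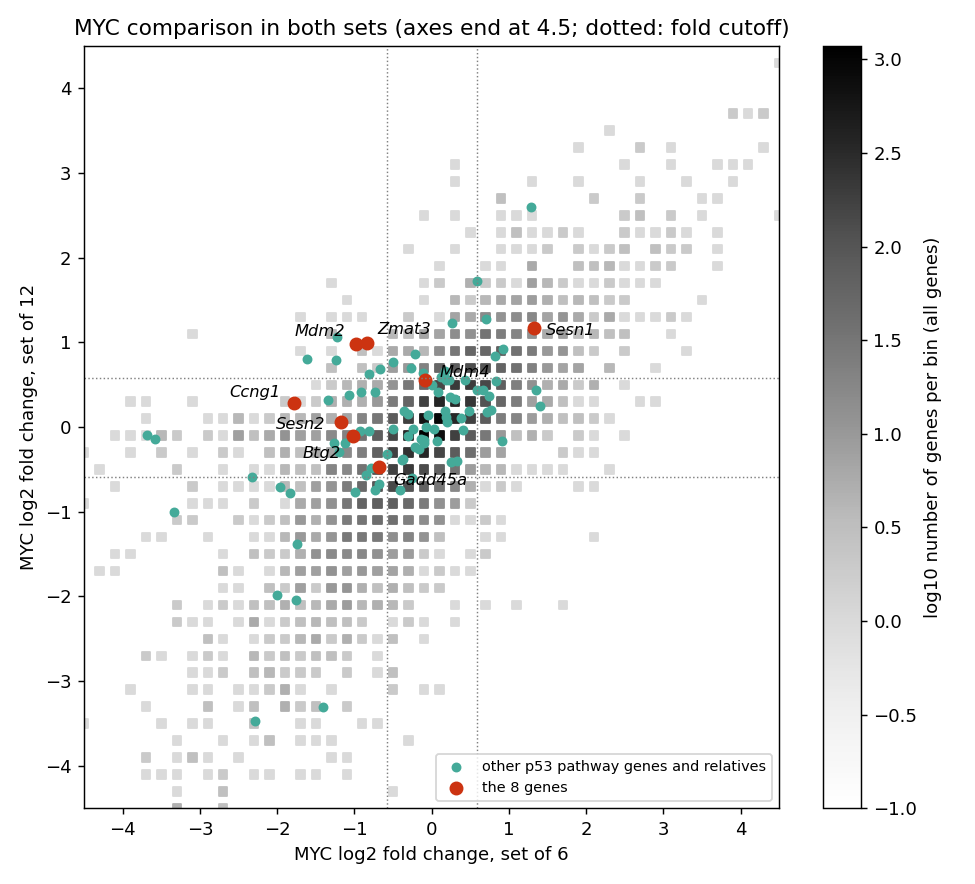
MYC log2 fold change in the set of 6 (horizontal) against the set of 12 (vertical). Grey squares give the log10 number of genes per bin over the whole table, cut at 4.5 on each axis, and circles mark the 8 genes and the 86 other p53 pathway genes and relatives. Mdm2 and Zmat3 lie in the upper left, at -0.98 and 0.99 and at -0.84 and 0.99, and Sesn1 in the upper right.

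To ask whether AHR contributes to these levels in MYC-expressing cells, each siRNA was compared with the same 3 myc-/- + MYC siCtrl cultures, which also serve in the comparison of MYC in the set of 12. With siAHR-2, limma called 0 of the 8 genes, against 0.47% of all genes, while 5 of the 8 had an adjusted p below 0.05 (29.3% of all genes) and 6 an unadjusted p below 0.05 (40.4% of all genes). With siAHR-5, Zmat3 alone of the 8 genes passed, as a rise, where 1.48% of all genes rose and 0.849% fell, and 4 of the 8 had an adjusted p below 0.05 (39.2% of all genes).

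Zmat3 was at 15.53, 15.53 and 15.52 in siAHR-2 cells and at 15.66, 15.63 and 15.72 in siAHR-5 cells, all above the 14.92 to 15.05 of the siCtrl cultures. The log2FC was 0.68 with siAHR-5 (SE 0.0422, adjusted p = 4.04e-04) and 0.54 with siAHR-2 (SE 0.0359, adjusted p = 7.43e-04), the latter below the fold cutoff as deposited and above it after quantile normalization (0.60). Between the siRNAs, Zmat3 differed by 0.15 (SE 0.0238, adjusted p = 0.00588). The order of its group means in the set of 12 was thus myc-/-, siCtrl, siAHR-2 and siAHR-5, and no neighbours in that order overlapped.

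Sesn2 was at 14.40, 14.47 and 14.46 in siAHR-5 cells, above the 13.91 to 13.98 of the siCtrl cultures (log2FC 0.49, SE 0.0304, adjusted p = 4.04e-04). With siAHR-2 its values of 14.00, 13.98 and 13.95 overlapped those of the siCtrl cultures (log2FC 0.02, SE 0.0255, adjusted p = 0.637). The siRNAs differed from each other by 0.47 (SE 0.0251, adjusted p = 1.73e-04), short of the fold cutoff. Of the groups in the set of 12, siAHR-5 stood apart for Sesn2, and the ranges of the other 3 groups overlapped.

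Mdm2 was at 14.89, 14.90 and 14.96 with siAHR-2 and at 15.32, 15.28 and 15.35 with siAHR-5, and the siCtrl cultures lay between the groups without overlap. The log2FC was -0.15 for siAHR-2 (SE 0.0238, adjusted p = 0.00803) and 0.25 for siAHR-5 (SE 0.0253, adjusted p = 0.00125), both under the fold cutoff. Btg2 had the same order, at 13.98, 14.06 and 14.07 with siAHR-2 and at 14.39, 14.50 and 14.54 with siAHR-5. Its log2FC was -0.27 (SE 0.0261, adjusted p = 0.00195) and 0.17 (SE 0.0415, adjusted p = 0.0246). Set directly against siAHR-2, siAHR-5 gave 0.40 for Mdm2 (SE 0.0288, adjusted p = 3.92e-04) and 0.44 for Btg2 (SE 0.0467, adjusted p = 0.00136), again under the cutoff.

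Mdm4 was at 12.74, 12.73 and 12.83 with siAHR-2 and at 12.44, 12.33 and 12.61 with siAHR-5. It differed between the siRNAs by -0.31 (SE 0.0768, adjusted p = 0.0261) and from siCtrl by 0.15 with siAHR-2 (adjusted p = 0.0205) and -0.16 with siAHR-5 (adjusted p = 0.149). For Gadd45a the values were 11.41, 11.45 and 11.38 with siAHR-2 (log2FC -0.20, adjusted p = 0.0153) and 11.50, 11.53 and 11.60 with siAHR-5 (log2FC -0.07, adjusted p = 0.260). Ccng1, at 17.10, 17.08 and 17.08 with siAHR-2 and 17.23, 17.15 and 17.23 with siAHR-5, had a log2FC of -0.11 (adjusted p = 0.0525) and 0.01 (adjusted p = 0.887). Sesn1 was at 11.69, 11.70 and 11.81 with siAHR-2 and at 11.72, 11.72 and 11.79 with siAHR-5, overlapping siCtrl in both (log2FC 0.05, adjusted p = 0.461, and 0.06, adjusted p = 0.250). In the direct comparison of the siRNAs, limma called 0 of the 8 genes, against 2.18% of all genes, and 7 of the 8 had an adjusted p below 0.05, against 39.1% of all genes. The unadjusted p was below 0.05 for the same 7, Sesn1 being the exception, and for 46.8% of all genes.

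Other genes of the p53 pathway, grouped by role, and genes related to the listed ones by sequence were also examined, and 86 of them were in the table. Their lists were chosen with earlier results of these data known, so the shares describe these data only. With MYC in the set of 6, 43 of the 86 (50.0%) passed, 13 higher and 30 lower with MYC, beside 26.8% of all genes. For the set of 12 it was 31 (36.0%), 17 higher and 14 lower, beside 25.5% of all genes. The 86 genes had a median log2FC of -0.21 and 0.11 in these sets. With siAHR-2, limma called 0 of the 86, beside 0.47% of all genes, and 54 of the 86 had an unadjusted p below 0.05, beside 40.4% of all genes. With siAHR-5 it called 7 (8.14%), all higher, beside 2.33% of all genes. The difference of the MYC comparisons passed for 34 (39.5%), 27 of them higher in the set of 12, beside 16.5% of all genes.

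**Figure D4:**
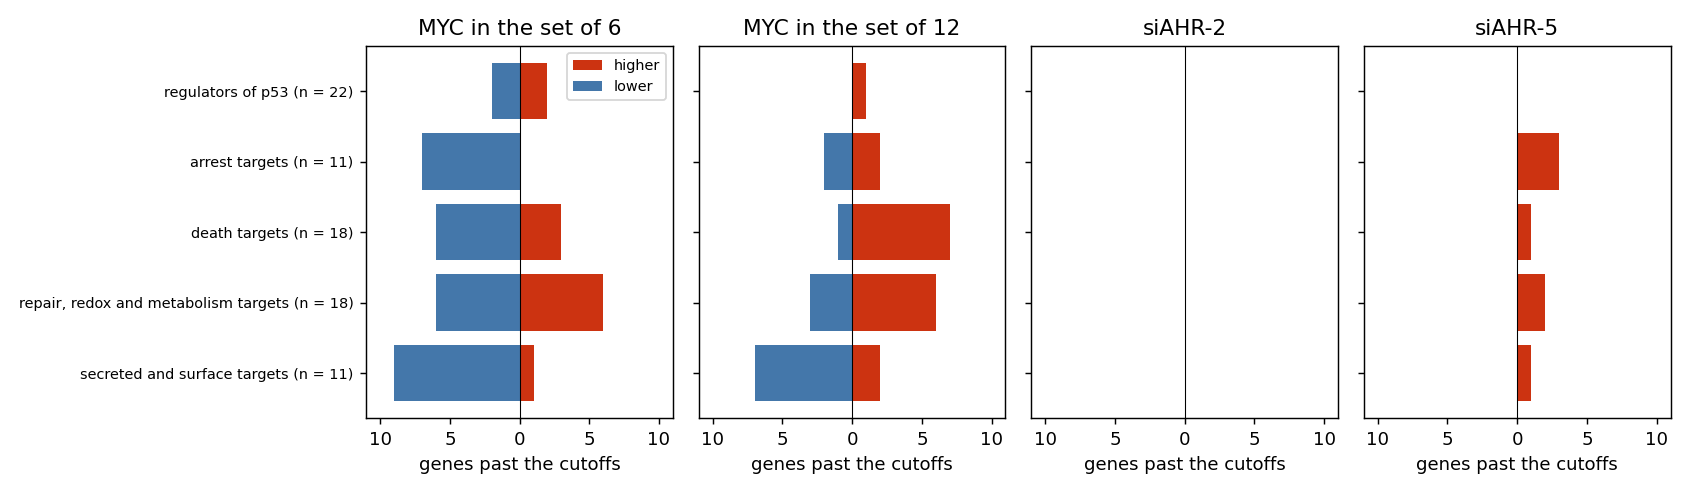
Number of genes past both cutoffs in each role group of the p53 pathway (n, genes in the table), higher to the right and lower to the left, for MYC in each set and for both siRNAs. In the set of 6 the arrest targets have 0 genes to the right and 7 to the left, and the siAHR-5 panel has bars only on the higher side.

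Of 22 regulators of p53, 2 rose and 2 fell in the set of 6 (18.2%) and 1 rose in the set of 12 (4.55%), smaller shares than the 26.8% and 25.5% of all genes called. The checkpoint kinase gene Chek2 rose in both, with a log2FC of 0.92 in each. Tp73, a gene of the p53 family, fell in the set of 6 (log2FC -3.59), while its log2FC was -0.14 in the set of 12 (adjusted p = 0.106). The ubiquitin ligase gene Rchy1 fell (-0.79) and Rpl11, a ribosomal protein gene whose product can bind Mdm2, rose (0.74) in the set of 6. Their log2FC stayed under the cutoff in the set of 12 (-0.49 and 0.37).

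Of 11 arrest targets, 7 fell and none rose in the set of 6 (63.6%), with a median log2FC of -0.73, while 2 rose and 2 fell in the set of 12 (36.4%), beside 26.8% and 25.5% of all genes. Cdkn1a, which encodes the cyclin-dependent kinase inhibitor p21, was at 11.69, 11.67 and 11.81 in myc-/- siCtrl cells and at 9.45, 9.33 and 9.41 in myc-/- + MYC cells. It fell by 2.33 on the log2 scale (SE 0.0550, adjusted p = 1.79e-11). Cdkn1a in the set of 12 was at 11.69, 11.83 and 11.73 without MYC and at 11.07, 11.20 and 11.21 with MYC, a fall by 0.59 (SE 0.0586, adjusted p = 2.48e-04) that was under the cutoff after quantile normalization (-0.57) and median centring (-0.55). The phosphatase gene Ptprv fell in the set of 6 (log2FC -3.69) but not past the cutoffs in the set of 12 (-0.10, adjusted p = 0.587). Gtse1, whose product binds p53 in G2, fell in the set of 6 (log2FC -1.23) and rose in the set of 12 (1.07). Plk2, a kinase gene induced by p53, fell by 1.20 in the set of 6 (-0.29 in the set of 12, under the cutoff). Plk3, another kinase gene, passed as a rise in the set of 12 after median centring (0.60, against 0.55 as deposited). After that scaling 3 arrest targets rose and 1 fell in the set of 12, and after quantile normalization 2 rose and 1 fell. Btg1, a relative of Btg2, rose in the set of 12 (0.66) but did not pass in the set of 6 (0.17), and Gadd45g, a relative of Gadd45a, fell in both (-0.68 and -0.67).

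For the death targets, 3 rose and 6 fell of 18 in the set of 6 (50.0%), beside 26.8% of all genes. In the set of 12, 7 rose and 1 fell (44.4%), beside 25.5% of all genes. After median centring 2 rose and 7 fell in the set of 6. After quantile normalization or median centring 8 rose and 1 fell in the set of 12. Tnfrsf10b, the gene of a TRAIL death receptor, rose in both sets (log2FC 1.29 and 2.59). Fas, another death receptor gene, fell in the set of 6 (-1.34), and its log2FC was 0.31 (adjusted p = 7.10e-04) in the set of 12. Phlda3, whose product inhibits AKT, and Tp53inp1 also fell in the set of 6 (-1.27 and -0.92). They did not pass in the set of 12 (-0.19 and 0.41). Within the set of 12, the nuclease gene Aen (0.77) and Rps27l (0.69) rose and Bid, which links death receptors to mitochondria, fell (-0.75), while in the set of 6 they were at -0.50, -0.27 and -0.41, under the fold cutoff. Secreted and surface targets fell more often than they rose in both sets (9 against 1 of 11, and 7 against 2, where 14.3% of all genes fell and 12.5% rose, and 14.7% fell and 10.8% rose). Ninj1, which encodes a cell surface adhesion protein, had a log2FC of -1.75 and -2.05 in these sets. Gdf15, the gene of a stress-induced cytokine, fell by 3.33 and fell by 1.00. The anti-angiogenic matrix gene Thbs1 (-1.40 and -3.30) and the growth factor gene Tgfa (-1.84 and -0.77) also fell in both.

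Repair, redox and metabolism targets were split: of 18, 6 rose and 6 fell in the set of 6 (66.7%), beside 26.8% of all genes. In the set of 12, 6 rose and 3 fell (50.0%), beside 25.5% of all genes. Ddb2, a repair gene, also passed as a rise in the set of 12 after quantile normalization (0.62) and median centring (0.59), against 0.55 as deposited. Sod2, the mitochondrial superoxide dismutase gene, fell in both sets (log2FC -2.01 and -1.98). Slc19a2, a thiamine transporter gene, also fell in both (-1.97 and -0.71), and Pltp, of lipid metabolism, rose in both (0.70 and 1.28). Cpt1c, a carnitine palmitoyltransferase gene, rose in the set of 6 (1.35) and was under the cutoff in the set of 12 (0.43). Lpin1, of lipid metabolism, and Aldh4a1, of proline breakdown, rose in the set of 12 (1.23 and 0.86), and their log2FC was 0.27 and -0.21 in the set of 6. Among 12 genes related to the listed genes by sequence, 3 rose and 1 fell in the set of 6 (33.3%) and 1 rose and 2 fell in the set of 12 (25.0%), shares near the 26.8% and 25.5% of all genes. The third sestrin, Sesn3, rose in the set of 6 with Sesn1 (0.92), but its log2FC was -0.16 (adjusted p = 0.228) in the set of 12, a difference between the sets of -1.08 (SE 0.108, adjusted p = 8.30e-07). Tmem47 and Tob2, relatives of Perp and Btg2, rose in the set of 6 (1.41 and 0.77; 0.25 and 0.20 in the set of 12), and Pmp22, another relative of Perp, fell in the set of 12 (-0.60), less than the cutoff after quantile normalization or median centring (-0.51 and -0.56). Under these scalings Tob1, a relative of Btg2, passed instead (0.61 and 0.60, against 0.56 as deposited), which makes 2 that rose and 1 that fell in the set of 12.

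The pattern of Mdm2 and Zmat3, lower with MYC in the set of 6 and higher in the set of 12, was shared by 5 of the 86 genes (5.81%, against 0.212% of all genes). Gtse1 is named above. The DNA polymerase eta gene Polh, which copies past ultraviolet damage, had a log2FC of -1.23 and 0.79. Ephx1, an epoxide hydrolase gene, had -1.62 and 0.81. The death genes Pmaip1, which encodes Noxa, and Pidd1 had -0.81 and 0.62, and -0.66 and 0.68. Of the other list genes that passed in both sets, 4 were higher in both and 12 were lower in both. Over all genes, 15.8% passed in the same direction in both sets. Together with Mdm2 and Zmat3 these 5 made up 7 of the 28 genes with this pattern in the table (25.0%).

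Among the list genes, Cdkn1a separated the siRNAs. It was at 11.20, 11.19 and 11.22 with siAHR-2, overlapping the siCtrl cultures (log2FC 0.04, SE 0.0438, adjusted p = 0.512), and at 12.20, 12.22 and 12.28 with siAHR-5, above them (log2FC 1.07, SE 0.0482, adjusted p = 2.26e-04). Tested directly, siAHR-5 exceeded siAHR-2 by 1.03 (SE 0.0293, adjusted p = 5.44e-05). Ptprv likewise rose with siAHR-5 (1.09, adjusted p = 0.00136) and had a log2FC of -0.29 with siAHR-2 (adjusted p = 0.172), a difference between the siRNAs of 1.38 (SE 0.0916, adjusted p = 3.19e-04). Other list genes that rose with siAHR-5 included Cpt1c (0.92), Pltp (0.85), Tp53inp1 (0.72) and Gadd45b (0.60), of which Gadd45b dropped under the fold cutoff after median centring (0.54). In the direct comparison 11 of the 86 genes passed (12.8%), 10 of them higher with siAHR-5, where 1.33% of all genes were higher and 0.849% lower. Under a block for the replicate number, calls among the repair, redox and metabolism targets went from 2 higher and 1 lower to 1 lower. Ahr did not pass between the siRNAs (-0.11, SE 0.0570, adjusted p = 0.211).

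Beside these results, 1 of 11 fibroblast markers rose with MYC and 5 fell in the set of 6, where 26.8% of all genes passed. In the set of 12, 7 fell, or 6 after quantile normalization or median centring, where 25.5% of all genes passed, and Col1a1 had a log2FC of -5.95. The 11 log2 values summed to 155.3 to 156.2 in myc-/- siCtrl and 149.3 to 149.9 in myc-/- + MYC cultures. The sum was 151.9 to 152.3 in myc-/-, 135.8 to 135.9 in myc-/- + MYC siCtrl, 135.5 to 135.7 in siAHR-2 and 136.8 to 137.2 in siAHR-5 cultures. With siAHR-5 the fibroblast marker Thy1 was higher (0.75). Markers of other cell types moved with MYC too: of 5 epithelial genes Krt8 rose in both sets (1.70 and 1.17) and Cldn4 fell in the set of 6 (-0.84), of 4 endothelial genes Tek rose in the set of 6 (1.61), and the 3 blood genes did not pass in either set. Their part in the results was not tested. Fewer cells of a type and less RNA per cell cannot be told apart in these cultures.

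To describe which genes ran with the 8, each gene's mean within the set of 6 and within the set of 12 was subtracted and profiles were correlated over the 18 libraries, which share groups and normalization. Mdm2 was most like Mastl (Pearson r 0.987), Ctrb1 (0.982) and Gtse1 (0.980). Ccng1 was most like Krt15 (0.991), Sesn1 like Asb4 (0.998), Sesn2 like Socs4 (0.993), Gadd45a like Irak3 (0.986), Zmat3 like Ubash3b (0.973), Btg2 like Fosl1 (0.970) and Mdm4 like Senp2 (0.936). Among the 8 genes, Ccng1 and Sesn2 (0.913) and Mdm2 and Zmat3 (0.911) were the most alike, and Gadd45a and Sesn1 ran most in opposite directions (-0.957).

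Promoters were read from RefSeq on assembly GRCr8, 250 bases before to 50 bases after the start of each gene, and were found for 7 of the 8 genes (all but Zmat3). The files were made on rn6 and hold no coordinates. Motifs were searched on both strands. The p53 half-site consensus was found in 3 of the 7 promoters and in 7.98% of all 33469 promoters. The MYC and MAX E-box CACGTG was in 0 of the 7 (6.42% of all), TATAAA in 0 of the 7 (14.2% of all) and GGGCGG in 7 of the 7 (33.1% of all). These motifs do not contain each other, and a match describes letters in this window only. The known p53 sites of Mdm2 lie in the first intron, outside the window. Shown are the promoters of Mdm2, of Ccng1 and Sesn2, the pair of the 8 genes with the highest r, and of Sesn1, which rose in both sets. Capitals mark the p53 half-site. They lie at chr7:55200742-55201041 (Mdm2), chr10:25684827-25685126 (Ccng1) and chr5:150005206-150005505 (Sesn2) on the minus strand, and at chr20:46948469-46948768 (Sesn1) on the plus strand, and each runs 5′ to 3′ on the strand of its gene.
Mdm2: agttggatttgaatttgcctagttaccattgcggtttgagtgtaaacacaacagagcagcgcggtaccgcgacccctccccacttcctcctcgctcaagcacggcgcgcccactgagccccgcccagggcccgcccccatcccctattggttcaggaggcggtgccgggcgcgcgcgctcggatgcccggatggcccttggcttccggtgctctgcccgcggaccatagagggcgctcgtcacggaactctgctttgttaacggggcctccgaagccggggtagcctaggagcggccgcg
Ccng1: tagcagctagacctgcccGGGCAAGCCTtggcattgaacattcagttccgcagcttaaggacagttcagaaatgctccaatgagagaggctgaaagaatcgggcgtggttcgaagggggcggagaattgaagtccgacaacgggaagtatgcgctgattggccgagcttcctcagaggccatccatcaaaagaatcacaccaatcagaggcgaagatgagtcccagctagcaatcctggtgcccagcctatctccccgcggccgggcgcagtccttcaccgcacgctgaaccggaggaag
Sesn2: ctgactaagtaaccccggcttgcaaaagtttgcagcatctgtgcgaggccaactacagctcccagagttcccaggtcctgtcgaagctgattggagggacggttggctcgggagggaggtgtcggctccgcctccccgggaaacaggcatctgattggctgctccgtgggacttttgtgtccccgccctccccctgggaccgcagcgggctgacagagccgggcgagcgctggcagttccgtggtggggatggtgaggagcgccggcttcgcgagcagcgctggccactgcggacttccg
Sesn1: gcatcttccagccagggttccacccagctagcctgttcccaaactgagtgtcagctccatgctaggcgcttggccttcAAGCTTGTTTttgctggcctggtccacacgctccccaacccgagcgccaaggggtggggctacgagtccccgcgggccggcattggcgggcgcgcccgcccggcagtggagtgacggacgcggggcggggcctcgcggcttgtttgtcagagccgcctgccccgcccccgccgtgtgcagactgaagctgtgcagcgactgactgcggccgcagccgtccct

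Ccng1, with the half-site GGGCAAGCCT, fell with MYC in the set of 6 but not in the set of 12, and Sesn1, with AAGCTTGTTT, rose in both. The third promoter with a half-site was that of Gadd45a (GGGCTAGCCC), a gene whose log2FC was negative in both sets. Mdm2 and Sesn2 have no capitals in their windows.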

How the data were processed

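RNA-seq was measured in 18 libraries. Per the labels and the study's methods, the authors aligned reads to rn6 with HISAT2 2.1.0, removed genes with few reads and normalized with DESeq2. The read counter and annotation are not given in the sources used here. The authors deposited log2 values for 13188 genes, with no replicates pooled. The transformation is not stated, and taken off the log scale the values sum to a different total in each library, so they are not CPM. Value columns without a sample numbered 0. No counts were available, so limma 3.58.1 in R 4.3.3 (lmFit, eBayes with a trend) was used in place of DESeq2, on the groups compared only, with adjustment over all genes. The fits were tested on simulated data with known changes before use.

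The 8 genes and the lists were chosen with earlier results of these data known. All 8 are named. Of each list, up to 4 genes past the cutoffs with the largest log2FC are named per comparison, and some genes the rule picks are not reported here. Outside that rule, Gdf15 in the set of 12, Tob1, Plk3, Ddb2 and the genes that passed in opposite directions were added after their values were seen. So were values of a named gene in other comparisons. Tried as alternatives were a cutoff on the adjusted p only, a fit over all groups, no trend, quantile normalization, median centring, a filter on mean values under 1, adding 1 on the linear scale, a block for the replicate number, and fits without each library. Same-numbered cultures did not deviate together in every pair, as described with the alternatives. The promoters and gene names come from RefSeq (GRCr8), and figures were drawn with matplotlib 3.10.9.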

Additional observations from a re-analysis of the deposited data

Results flagged for a closer look

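The MYC comparison gave different results in the sets for 6 of the 8 genes, by the test of the difference itself (set of 12 minus set of 6, log2 scale, limma). The difference was 2.06 for Ccng1, 1.96 for Mdm2, 1.83 for Zmat3, 1.24 for Sesn2, 0.909 for Btg2 and 0.637 for Mdm4. A MYC effect equal in both sets cancels in this difference. A MYC effect that differs between the sets cannot be told apart in it from the transfection label. The test for a library far from the others of its group was not applied, since each group has 3 cultures.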

How the results depend on the processing

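With an adjusted p below 0.05 and no fold cutoff, the number of the 8 genes that passed was 7 for MYC in the set of 12 (3 as reported), 5 for siAHR-2 (0), 4 for siAHR-5 (1) and 7 for siAHR-5 against siAHR-2 (0). Quantile normalization brought 1 gene, Zmat3, past the cutoffs for siAHR-2. Leaving out each library in turn gave 7 to 7 genes for MYC in the set of 6, 3 to 4 in the set of 12, 5 to 6 for the difference of the MYC comparisons, 1 to 1 for siAHR-5, and 0 to 0 for siAHR-2 and for siAHR-5 against siAHR-2. Where this leaves a group with 2 cultures, limma pools the spread over both groups. The other alternatives left these counts within 1.5 times. Single log2FC values kept their side of the cutoffs in 361 of 384 cases with all libraries, and 23 passed only under the alternative. With a library left out, 333 of 336 kept their side, 1 passed only then and 2 no longer passed, both of Mdm4. The sign turned in 6 of the 384 and 7 of the 336 cases, all of values that did not pass the cutoffs as reported: Btg2 for MYC in the set of 12, Sesn2 for siAHR-2, Ccng1 and Sesn1 for siAHR-5, and Sesn1 for siAHR-5 against siAHR-2. No value that passed the cutoffs changed sign, and scaling moved the median of all genes by at most 0.09.

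The replicate number as a block gave 7, 3, 0, 1, 6 and 0 of the 8 genes for MYC in the set of 6, MYC in the set of 12, siAHR-2, siAHR-5, the difference and siAHR-5 against siAHR-2, the same counts as without pairing. The deviations of same-numbered cultures correlated at -0.0730 to 0.00824 in the set of 6, -0.256 to 0.242 in the set of 12, -0.0290 to 0.0579 for siAHR-2, -0.0650 to 0.218 for siAHR-5 and -0.00833 to 0.143 for siAHR-5 against siAHR-2. In none of these were all 3 correlations over 0.1, the level set for treating the numbers as pairs. Over the whole table the block left 0 genes for siAHR-2 (5030 with an unadjusted p below 0.05) in place of 62.

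Without the fold cutoff, 10051, 8538, 3860, 5169, 7235 and 5151 genes of the table passed, in place of 3538, 3361, 62, 307, 2171 and 287, in the order of comparisons given for the block. Scaling moved the split of higher and lower calls over the table for siAHR-2 (15 and 53 after median centring, 21 and 41 as deposited), siAHR-5 (127 and 126 after quantile normalization, 140 and 165 after median centring, 195 and 112 as deposited) and the difference (1148 and 1036 after median centring, 896 and 1275 as deposited). For MYC, quantile normalization turned the majority from lower to higher, at 1799 and 1684 (1653 and 1885 as deposited) in the set of 6 and 1796 and 1661 (1425 and 1936 as deposited) in the set of 12. The depth is unknown, so no limit of detection can be given for any gene.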
